A study of Homo sapiens with 12 samples.

Results

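The microRNAs described here are the 141 human array names from miR-548 to miR-671, of 851 human microRNA names on the array. They were chosen by name alone: every hsa-miR entry in that number range without an asterisk, leaving out miR-654, miR-655, miR-656, miR-665 and miR-668, which lie in the imprinted chromosome 14 cluster. Most were annotated from primate or human small RNA libraries and have no known counterpart in mouse. Of the 141 names, 20 belonged to the miR-548 family, 19 had a mouse microRNA of the same number, and 102 were other entries.

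The arrays measured total RNA of SUM159, an established triple-negative breast cancer line with a mesenchymal character, grown in DMEM/F-12 with serum, insulin and hydrocortisone. All cells carried a stably integrated PLKO.1 lentiviral vector, which held either an shRNA against Dicer or a scrambled control shRNA that has 4 base mismatches to every known gene of human and mouse. Both lines received PBS (the vehicle) or 0.5 mM metformin, a biguanide drug used in diabetes, for 24 h. The 4 groups, control shRNA with vehicle, Dicer shRNA with vehicle, control shRNA with metformin and Dicer shRNA with metformin, held 3 arrays each, which the labels call biological replicates. Groups were taken from the sample titles, since the source names of the metformin samples read differently. The vehicle arrays were on 1 slide and the metformin arrays on another, so that an effect of metformin and one of the slide cannot be told apart. The array carries no Dicer mRNA probe, so the knockdown itself was not checked, and each line was a single stable population. The design addresses whether metformin changes microRNA levels and whether Dicer is needed for that.

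A canonical microRNA is cut from a hairpin in the nucleus by Drosha and then from the exported precursor by Dicer, loaded into an Argonaute protein, and guided to target messages by the seed, bases 2 to 8 of the mature strand. Lowering Dicer is therefore expected, in general, to lower mature microRNAs. Names from miR-548 upward came from deep cloning and sequencing of human samples. Many sit in introns of protein-coding genes, some derive from transposable elements (the miR-548 family from short Made1 elements), and some are poorly supported as Dicer products.

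Mature sequences were found in RefSeq (GRCh38.p14) for 88 of the 141 names, 86 under the same name and 2 under a newer one. Of the 24 members that could be tested, 19 had a sequence, and these had 19 different seeds. The following 7 are shown because they had the largest differences between groups, with the seed in capitals. The eighth such member, miR-575, had no matching entry.

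miR-557: gUUUGCACgggugggccuugucu
miR-564: aGGCACGGugucagcaggc
miR-572: gUCCGCUCggcgguggccca
miR-583: cAAAGAGGaaggucccauuac
miR-630: aGUAUUCUguaccagggaaggu
miR-634: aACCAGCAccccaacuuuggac
miR-663: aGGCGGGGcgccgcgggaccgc

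The 7 come from 7 chromosomes. miR-557 lies at chr1:168375584-168375606 (+), outside any gene of the RefSeq table. miR-564 lies at chr3:44861903-44861921 (+) within the bounds of KIF15, a mitotic kinesin. miR-572 lies at chr4:11368887-11368906 (+), within the pseudogene RNPS1P1. miR-583 lies at chr5:96079153-96079173 (+) within CAST, which encodes the calpain inhibitor calpastatin, and within the lncRNA LOC101929710. miR-630 lies at chr15:72587277-72587298 (+) within ARIH1, an E3 ubiquitin ligase gene. miR-634 lies at chr17:66787132-66787153 (+) within PRKCA, the gene of protein kinase C alpha. miR-663, listed in RefSeq as miR-663a, lies at chr20:26208243-26208264 (-) within its host lncRNA MIR663AHG. Gene bounds alone were available, so exon and intron were not told apart. Their GC content ran from 45.5% in miR-630 to 90.9% in miR-663.

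Of the 141 names, 38 (27%) were detected on at least 1 array, 15 on all 12, and 103 on none; detection is the flag that the scanner software sets for a signal above its background. Among the 710 human names outside the range, 225 (31.7%) were detected on at least 1 array. The miR-548 family was the least often detected of the 3 groups of members: 4 of its 20 names gave a signal, miR-548c-3p and miR-548f on all 12 arrays, miR-548d-5p on 2 and miR-548c-5p on 1. Of the 19 names with a mouse counterpart 5 were detected, and of the 102 others 29 were. The 26 detected members with a sequence had a median GC content of 60.0%, the 62 that no array detected 41.3%, and all 2370 mature RefSeq microRNAs 52.2%. A run of GGG, searched in the mature strand only, was present in 38.5% of the detected members, 17.7% of the undetected ones and 33.2% of all mature entries. These shares are descriptions; whether base composition bears on detection was not tested.

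Signals were scaled between arrays on the 75th percentile of the 98 human microRNAs detected on all arrays. Scaled signals under a floor of 3.01, and undetected ones, were set to that floor, 1.59 on the log2 scale. A member was tested if all 3 arrays of at least 1 group detected it, which 24 did. Of these, miR-602, miR-609 and miR-664 met that rule in the control metformin group alone, so their being high there admitted them to the tests, and counts of the same calls are also given over the 15 members and 98 human microRNAs detected on all arrays. Another 14 were detected too rarely: miR-563 on 4 arrays, miR-548d-5p, miR-659 and miR-662 on 2 each, and miR-548c-5p, miR-570, miR-576-3p, miR-576-5p, miR-578, miR-595, miR-605, miR-636, miR-657 and miR-663b on 1 each. In all 208 human microRNAs were tested. The tests were limma's moderated tests with 4 group means fitted on all 12 arrays, and a microRNA was called where its p, adjusted over all 208 by Benjamini and Hochberg, was under 0.05. The 4 pairwise comparisons share groups, so each is given by its own values.

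Each array detected between 130 and 204 human names, and replicate arrays correlated at 0.976 to 0.996 over the microRNAs detected on all arrays. Control vehicle replicate 3 was the dimmest array for these members: it had the lowest of the 3 control vehicle values for 12 of the 15 members detected on all arrays, and for 47 of the 83 other microRNAs detected on all arrays. Between 77.7% and 84.3% of the human signal came from miR-923, a name later withdrawn as a ribosomal RNA fragment. Of the epithelial markers, miR-200a, miR-200b, miR-200c, miR-141 and miR-429 were detected on no array while miR-205 was on all 12; the 5 mesenchymal markers were all detected, 4 of them on every array. Of 6 blood markers, 4 were detected on no array, while miR-223 and miR-486-5p were detected on the 3 control metformin arrays and on no other. The summed signal of the blood list was 0 in the other 3 groups and 15.2 to 20.4 in control metformin. Of 4 muscle markers, miR-1 and miR-206 were detected on no array, miR-133a on 10 and miR-133b on 4. The summed signal of the muscle list was 0 to 4.41 in control vehicle, 0 to 6.52 in Dicer vehicle, 24.9 to 29.9 in control metformin and 7.74 to 21.1 in Dicer metformin. The epithelial sum, miR-205 alone, was highest in control vehicle (619.97 to 645), as was the mesenchymal sum (1831 to 2059, against 43.8 to 81.7 in control metformin).

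The members together took a larger share of the signal in every other group than in control shRNA cells with vehicle. Leaving out miR-923, they held 7.04%, 6.73% and 4.77% of the human signal on the control vehicle arrays, 13.2%, 12.5% and 11.8% on the Dicer vehicle arrays, 14.8%, 15.2% and 15.3% on the control metformin arrays and 13.6%, 13.8% and 14.5% on the Dicer metformin arrays. The control vehicle group lay apart from the other 3, and the control metformin arrays were the highest. The group means were 6.18 ± 1.23%, 12.5 ± 0.735%, 15.1 ± 0.255% and 14.0 ± 0.507% (SD, n = 3 each). The number of members detected moved less, with means of 20 ± 2.65, 23 ± 2, 26 ± 1 and 21 ± 2 in the same order. The summed scaled signal of the members was 1552 ± 371, 3234 ± 452, 6151 ± 343 and 4122 ± 553 in that order. Most of this sum came from miR-575, miR-630 and miR-638. They read 406, 303 and 683 of 1815 on control vehicle replicate 1. On control metformin replicate 1 they read 1440, 1620 and 1940 of 6083.

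**Figure D1:**
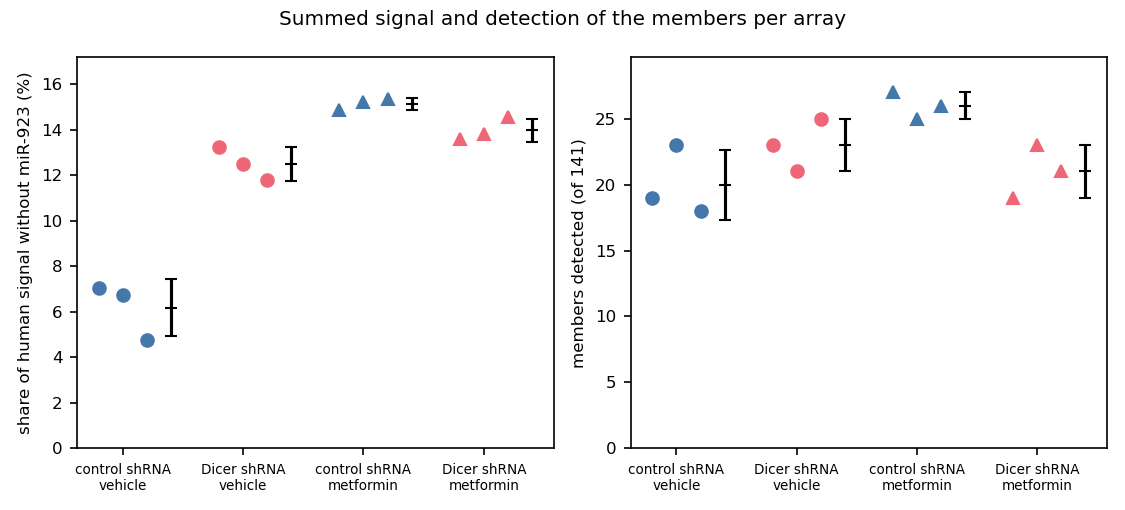
Share of the human array signal without miR-923 held by the 141 members (left, percent) and number of members detected (right), each point 1 array, bars the group mean ± SD (n = 3), circles vehicle and triangles metformin. The control vehicle arrays sit between 4.77% and 7.04%, under all 9 others. Most of the members' signal was that of miR-575, miR-630 and miR-638.

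Metformin in control shRNA cells gave the largest differences. Rises with metformin in this and the following paragraphs are differences between slides as well, and the drug and the slide cannot be told apart. Of the 24 tested members 19 rose and 2 fell, where 47.6% of the 208 tested microRNAs rose and 40.4% fell. Without the 3 admitted by control metformin alone, 16 of 21 rose and 2 fell. The shares of all tested still hold other names that this group alone admitted. The median log2 difference of the 24 members was 1.83, against 0.52 over all tested. With arrays scaled on the viral entries described below, the whole tested set moved down by 1.43 in its median, and 13 members rose and 6 fell, beside 21.2% and 56.2% of all tested. Over the 15 members detected on all arrays 12 rose and 1 fell, where 62.2% of the 98 such microRNAs rose and 25.5% fell. The 4 blood and muscle markers that were detected were also called higher in this comparison, miR-133a by 2.49, miR-486-5p by 1.72, miR-223 by 1.28 and miR-133b by 1.24, and their part in the members' rise was not tested. Of the 102 names without a mouse counterpart or family number, 17 were tested, and 16 rose and 1 fell. Of the 5 tested names with a mouse counterpart, 2 rose and 1 fell. The risers include miR-602 and miR-609 in the first set and miR-664 in the second, which control metformin alone admitted to the tests.

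miR-630, which is known to be induced by cisplatin in lung cancer cells, had the largest difference measured on all arrays of both groups. Its scaled signal was 303, 261 and 182 on the control vehicle arrays, 529.6, 534 and 452 on the Dicer vehicle arrays, 1620.1, 1611 and 1530.2 on the control metformin arrays and 532, 669.7 and 856 on the Dicer metformin arrays. The control metformin arrays stood above all others, the control vehicle arrays stood below all others, and the Dicer arrays of both treatments lay between and overlapped. With metformin it rose by 2.71 ± 0.21 on the log2 scale (SE) in control shRNA cells, 6.52-fold (limma adjusted p = 5.4e-07), and its difference in Dicer shRNA cells was 0.42 ± 0.21 (limma adjusted p = 0.17). Dicer shRNA raised it by 1.05 ± 0.21 with vehicle (limma adjusted p = 0.00127); with the viral scaling that value was -0.15. With metformin it was lower in the Dicer line, by -1.24 ± 0.21 (limma adjusted p = 0.000811).

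miR-663, a GC-rich microRNA known from primates, followed the same order of groups. It read 24.5, 25.6 and 16.6 in control vehicle, 47.0, 42.0 and 38.2 in Dicer vehicle, 89.2, 89.9 and 99.7 in control metformin and 48.8, 53.6 and 64.3 in Dicer metformin. No group overlapped another. Metformin raised it 4.25-fold in control shRNA cells (log2 difference 2.09 ± 0.17, limma adjusted p = 1.12e-06), and 0.38 ± 0.17 separated the Dicer groups (limma adjusted p = 0.134). Dicer shRNA raised it by 0.95 ± 0.17 with vehicle (limma adjusted p = 0.000801), a value of -0.24 under the viral scaling, and lowered it by -0.75 ± 0.17 with metformin (limma adjusted p = 0.00609).

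The scaled signal of miR-575 was 406, 391 and 246 in control vehicle, 957, 726 and 596 in Dicer vehicle, 1440.2, 1293 and 1545 in control metformin and 861, 850.2 and 1161 in Dicer metformin. Control vehicle lay below and control metformin above the rest, and the Dicer groups overlapped. The rise with metformin in control shRNA cells was 4.19-fold (log2 difference 2.07 ± 0.23, limma adjusted p = 1.12e-05). With vehicle, Dicer shRNA raised it by 1.13 ± 0.23 (limma adjusted p = 0.00162), a value of -0.06 under the viral scaling. With metformin the line difference was -0.59 ± 0.23 and passed no call (limma adjusted p = 0.0694). The 3 arrays of each line did not overlap, which held for 53.8% of all tested in this comparison. The difference was called without control vehicle replicate 3 (limma adjusted p = 0.0362), without Dicer vehicle replicate 1 (0.0446) or without Dicer metformin replicate 3 (0.0389).

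miR-572, whose mature strand is 80.0% G and C, gave 109, 107 and 59.5 in control vehicle. It gave 259, 220.1 and 190.3 in Dicer vehicle, 325, 325 and 394 in control metformin and 295, 271 and 340.2 in Dicer metformin. Control vehicle was again apart, and the metformin groups overlapped each other. Metformin raised it 3.91-fold in control shRNA cells (log2 difference 1.97 ± 0.23, limma adjusted p = 1.4e-05) and Dicer shRNA raised it 2.49-fold with vehicle (1.32 ± 0.23, limma adjusted p = 0.000549), a value of 0.12 under the viral scaling (limma adjusted p = 0.519). With metformin the lines differed by -0.21 ± 0.23 (limma adjusted p = 0.545).

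miR-564 read 13.2, 13.6 and 4.85 in control vehicle, where replicate 3 was far under the other two. The other groups read 25.0, 22.7 and 22.6 (Dicer vehicle), 39.4, 35.0 and 48.9 (control metformin) and 29.6, 34.3 and 45.3 (Dicer metformin). Metformin raised it 4.26-fold in control shRNA cells (log2 difference 2.09 ± 0.35, limma adjusted p = 0.000231). Dicer shRNA raised it 2.45-fold with vehicle (1.29 ± 0.35, limma adjusted p = 0.00857), which fell to 0.09 ± 0.22 under the viral scaling (limma adjusted p = 0.797).

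A further 3 members, all dim, came up from the floor. miR-557 was detected on 1 control vehicle array, at 3.70, and read 18.9, 12.5 and 8.51 in Dicer vehicle, 20.7, 17.8 and 19.8 in control metformin and 16.6, 14.2 and 17.99 in Dicer metformin. Control vehicle lay under every other array, and the other 3 groups overlapped. Its differences against the floored control vehicle values were 2.59 ± 0.24 for metformin in control shRNA cells (limma adjusted p = 2.87e-06) and 1.97 ± 0.24 for Dicer shRNA with vehicle (limma adjusted p = 6.22e-05).

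miR-583 was detected on 1 control vehicle array at 2.59, under the floor. It read 4.99, 13.8 and 12.4 in Dicer vehicle, 18.5, 18.04 and 19.5 in control metformin and 6.03, 11.0 and 17.4 in Dicer metformin, so the Dicer groups were widely spread and overlapped. It was at least 6.20-fold higher with metformin in control shRNA cells (limma adjusted p = 0.000147) and at least 3.15-fold higher with Dicer shRNA under vehicle (limma adjusted p = 0.00545), both set against the floor in control vehicle cells. The metformin-treated lines differed by -0.83 ± 0.42 (limma adjusted p = 0.139); without Dicer metformin replicate 3 this was -1.20 (limma adjusted p = 0.0389) and without Dicer vehicle replicate 1 its adjusted p was 0.048.

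miR-634, hosted by PRKCA, was under the floor on all control vehicle arrays (2.14 and 2.59 on the 2 that detected it). It read 4.31, 2.19 and 6.40 in Dicer vehicle, 13.8, 12.8 and 15.0 in control metformin and 3.76, 5.85 and 10.5 in Dicer metformin. The control metformin arrays were above all others. Metformin raised it at least 4.61-fold in control shRNA cells (limma adjusted p = 0.000147). With metformin it was lower in the Dicer line by -1.18 ± 0.35 (limma adjusted p = 0.0222), a call that was lost without control metformin replicate 1 (adjusted p = 0.0618) or 3 (0.0718) and without Dicer metformin replicate 1 (0.0837) or 2 (0.0662).

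**Figure D2:**
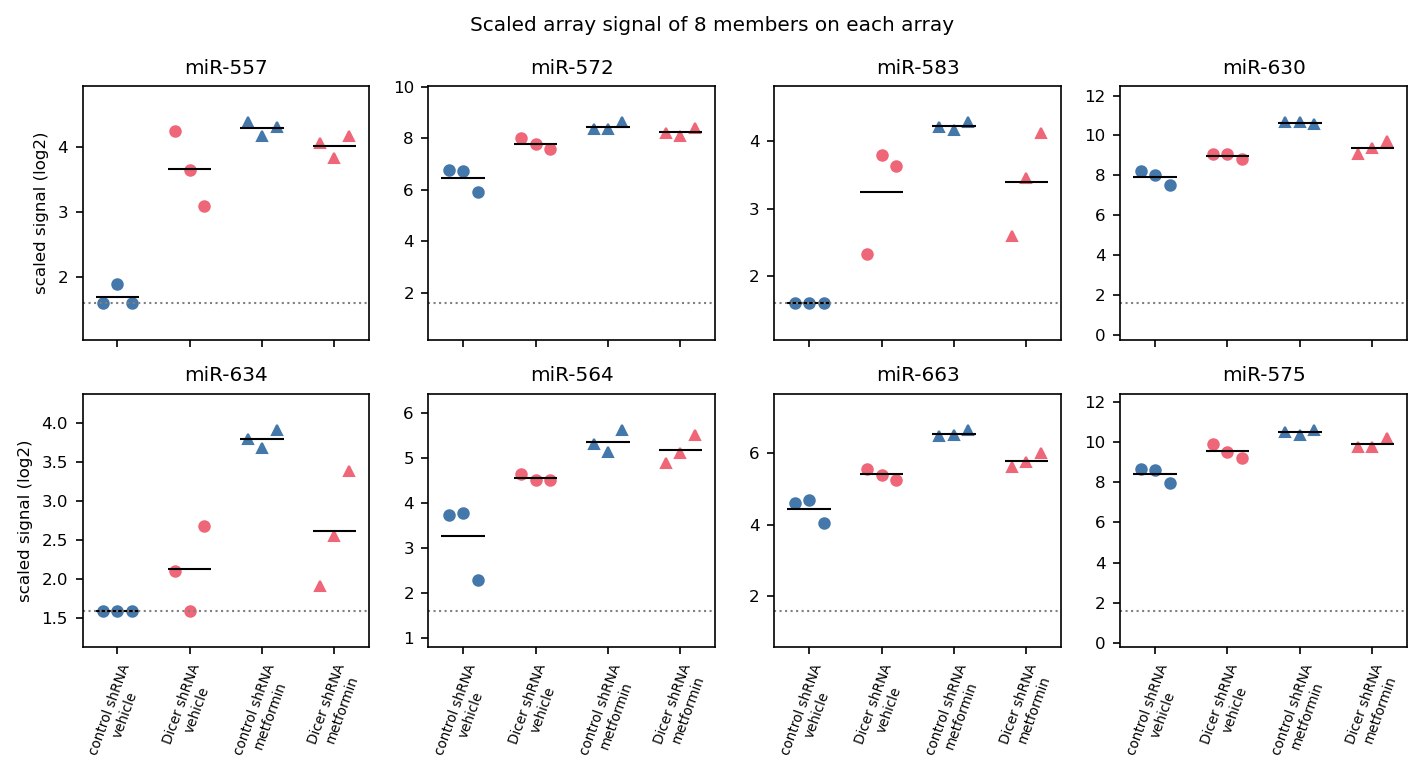
Scaled signal (log2) of the 8 members with the largest differences on each of the 12 arrays, circles vehicle and triangles metformin, blue control shRNA and red Dicer shRNA; lines mark group means and the dotted line the floor of 1.59. Control vehicle has the lowest mean and control metformin the highest in all 8 panels, and the vertical ranges differ between panels.

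Other members that rose with metformin in control shRNA cells were detected on all 12 arrays. miR-638, encoded within DNM2, the gene of dynamin 2, rose from between 438 and 683 to between 1939.5 and 2310.0, a log2 difference of 1.81 ± 0.18. miR-671-5p, known to direct cleavage of the circular RNA CDR1as and encoded within CHPF2, rose by 1.96 ± 0.23 (0.41 under the viral scaling, limma adjusted p = 0.0717), and miR-622, within the pseudogene KRT18P27, by 1.84 ± 0.20. miR-601, within DENND1A, rose by 1.17 ± 0.19, a value of -0.38 under the viral scaling. miR-550a rose by 1.91 ± 0.43 from values between 2.30 and 10.0 to values between 18.3 and 20.8; under the viral scaling its difference was 0.49 (limma adjusted p = 0.315).

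Several names were near the floor without metformin, and the first 3 below were tested only because every control metformin array detected them. miR-602 was detected on the 3 control metformin arrays and on no other, at 7.51, 8.04 and 10.9, at least 2.89-fold over the floor. miR-664, whose hairpin overlaps a small nucleolar RNA, was detected on all 3 control metformin arrays (11.3, 10.4 and 13.5), on no control vehicle array and on 1 array of each Dicer group, at least 3.87-fold over the floor. miR-609, within CFAP43, read 10.8, 7.41 and 12.4 with metformin, a difference of 1.56 ± 0.19 (0.63 under the viral scaling). miR-623, within UBAC2, rose at least 1.96-fold.

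The remaining tested names had the smallest differences in this comparison, in either direction. miR-548c-3p, from the transposon-derived family, rose by 0.70 ± 0.20 (limma adjusted p = 0.00787), and was -0.85 under the viral scaling. miR-584, known to target the kinase ROCK1, rose by 0.32 ± 0.12 (limma adjusted p = 0.0265), a call that was lost without control vehicle replicate 1 (adjusted p = 0.0715) or without control metformin replicate 2 (0.0519) or 3 (0.0949), and its sign turned with the viral scaling (-1.23) and without scaling (-0.05). miR-574-5p, whose gene lies within FAM114A1, was the only member called lower in both comparisons against control vehicle. It read 24.5, 22.0 and 23.0 there and between 14.1 and 17.8 with metformin, a difference of -0.57 ± 0.24 (limma adjusted p = 0.047), a call that was lost when any 1 array outside the Dicer vehicle group was left out (adjusted p from 0.0504 to 0.126). miR-658, within ANKRD54, was detected at 5.34, 4.33 and 5.00 in control vehicle and on no control metformin array, at least 1.62-fold lower (limma adjusted p = 3.54e-05). No call was made for miR-548f (0.62 ± 0.44), miR-574-3p (0.35 ± 0.16) and miR-615-3p, from the HOXC4 and HOXC5 locus (0.00 ± 0.56).

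In Dicer shRNA cells metformin moved few of these microRNAs past the threshold. None of the 24 rose and 1, miR-658, fell by -0.59 ± 0.09 (at least 1.50-fold, limma adjusted p = 0.00108; -0.24 and no call under the viral scaling), where 6.25% of the tested microRNAs rose and 18.3% fell. At an unadjusted p under 0.05 there were 1 higher and 1 lower member. The median difference was 0.15, against 0 over all tested. The largest was miR-550a at 1.19 ± 0.43 (limma adjusted p = 0.0692), whose adjusted p was 0.0336 without control vehicle replicate 2 and 0.0457 without control vehicle replicate 3. Without control vehicle replicate 3, which enters only through the shared spread, 5 members were called higher, miR-550a, miR-564, miR-572, miR-638 and miR-663; their log2 differences lay between 0.37 and 1.19. Over all tested microRNAs 11.5% were then higher. Quantile normalization gave 4 higher and 1 lower, beside 15.9% higher and 12% lower over all tested, and the authors' deposited matrix values 5 higher and none lower, beside 21.3% and 9.18%.

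Dicer shRNA, against control shRNA with vehicle, was accompanied by higher rather than lower signals for most of the members that changed. Of 24 tested, 12 were higher and 1 was lower, where 21.6% of all 208 were higher and 38% lower; with the viral scaling, which lowered the median of all tested by 0.98, 2 were higher and 4 lower, beside 1.92% and 61.5% of all tested. Among the 15 members that every array detected, 10 were higher and 1 lower, beside 40.8% and 23.5% of the 98. The median over members was 0.69 and over all tested 0. In addition to 7 of the 8 described above (miR-634, at 0.54 ± 0.35, was not called), miR-671-5p was higher by 1.27 ± 0.23, miR-638 by 1.13 ± 0.18, miR-622 by 1.07 ± 0.20, miR-601 by 0.92 ± 0.19 and miR-584 by 0.76 ± 0.12. Under the viral scaling 4 of these had a negative difference, miR-584 (-0.44), miR-601 (-0.28), miR-622 (-0.13) and miR-638 (-0.07), and the fifth, miR-671-5p, lost its call (0.08, limma adjusted p = 0.812). miR-574-5p was lower by -0.67 ± 0.24 (limma adjusted p = 0.0361), with arrays at 9.05, 19.02 and 18.1, and its call was lost without any 1 of the 3 control vehicle arrays (adjusted p of 0.0903, 0.0633 and 0.0815) or without control metformin replicate 1 (0.0519). The call for miR-550a, at 0.63 ± 0.43, was made only without control vehicle replicate 2 (1.10) or Dicer vehicle replicate 1 (1.04).

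For comparison, all 17 tested canonical Dicer products of a list of 20 fell with Dicer shRNA under vehicle, with a median of -2.50. The same 17 fell with metformin in control shRNA cells, with a median of -3.57. With Dicer shRNA under metformin 7 of the 17 were higher and none lower. Some of the 17, such as let-7a, let-7f, let-7g and let-7i, lay at the floor in both metformin groups, so no fall could show there. let-7g and let-7i were also at the floor in Dicer vehicle. A name high in control vehicle alone can pass the filter by that group, and the floor sets the size of its falls in part. Of 30 tested names from miR-1178 to miR-1324, also annotated late, 12 were higher and 5 lower with Dicer shRNA under vehicle, and 23 rose and 5 fell with metformin in control shRNA cells. The members' own differences ran from -0.67 to 1.97 and from -0.70 to 2.71 in these comparisons, and all tested names ran from -4.34 to 1.99 and from -6.55 to 3.35.

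**Figure D3:**
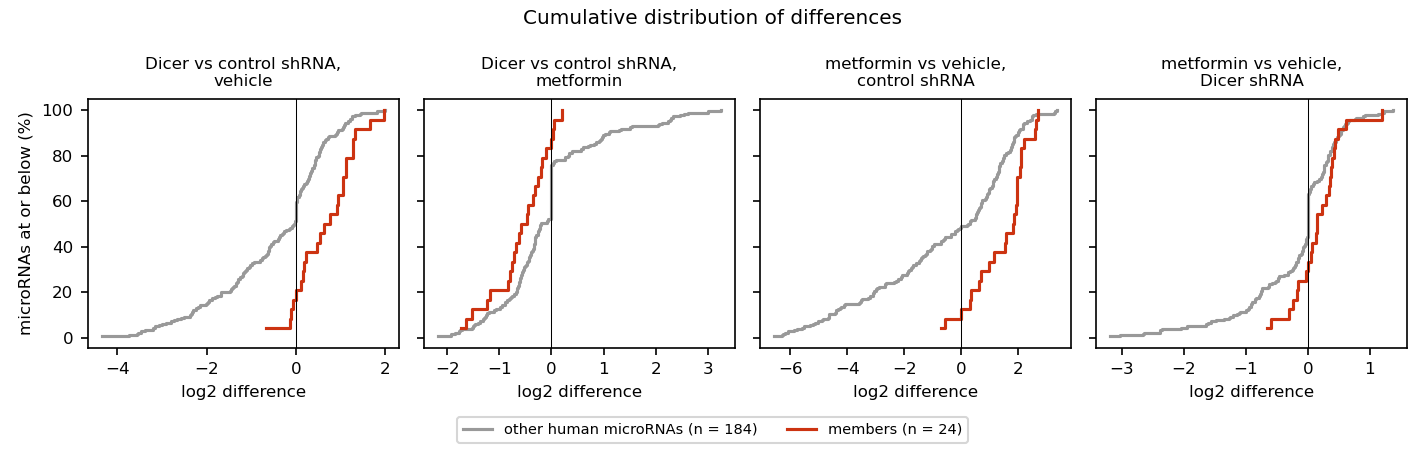
Cumulative percent of microRNAs (vertical) at or below each log2 difference (horizontal) for the 24 tested members (red) and the 184 other tested human microRNAs (grey) in the 4 comparisons; horizontal ranges differ between panels. The member curve lacks the long lower tail of the others in every panel but the second and has a median of 1.83 for metformin in control shRNA cells, against 0.27 for the others; under the viral scaling the member median there was 0.42.

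With metformin the members called between the lines were lower rather than higher. None of the 24 members was higher and 9 were lower in the Dicer line than in the control line, where 13.9% of all tested were higher and 25% lower. Without the 3 that control metformin alone admitted, 6 of 21 (28.6%) were lower, near the share of all tested. That share still holds other names admitted by control metformin alone, such as miR-223 and miR-486-5p, so the sets are not alike. The count was 18 with median scaling (51% of all tested lower), 14 with array weights (43.3%) and 5 with viral scaling (11.5%). Under the viral scaling no call was made for miR-548c-3p (limma adjusted p = 0.434), miR-622 (0.122), miR-623 (0.0894) and miR-634 (0.114). With array weights 1 member was called higher. Over the 15 members detected on all arrays 4 were lower, beside 24.5% of the 98. The median was -0.53, against -0.24 over all tested. The 9 were miR-548c-3p, miR-602, miR-609, miR-622, miR-623, miR-630, miR-634, miR-663 and miR-664. Of these, miR-602, miR-609 and miR-664 entered the tests through their detection in control metformin alone, and the other 6 were tested on wider detection. miR-609 was at least 3.31-fold lower, with no Dicer metformin array over the floor, and miR-602 at least 2.89-fold lower. miR-664 was lower by -1.64 ± 0.37 (limma adjusted p = 0.00513), with 1 Dicer metformin array at 5.71. miR-623 was lower by -0.80 ± 0.19, miR-548c-3p by -0.71 ± 0.20 and miR-622 by -0.62 ± 0.20; miR-623 stood at 0.03 after quantile normalization. The call for miR-622 (limma adjusted p = 0.0363) was lost without control metformin replicate 1 (0.102) or 3 (0.111) and without Dicer metformin replicate 1 (0.11) or 2 (0.101). That for miR-548c-3p (limma adjusted p = 0.0185) was lost without control metformin replicate 1 (0.0618) or 2 (0.062) or Dicer metformin replicate 2 (0.0788).

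**Figure D4:**
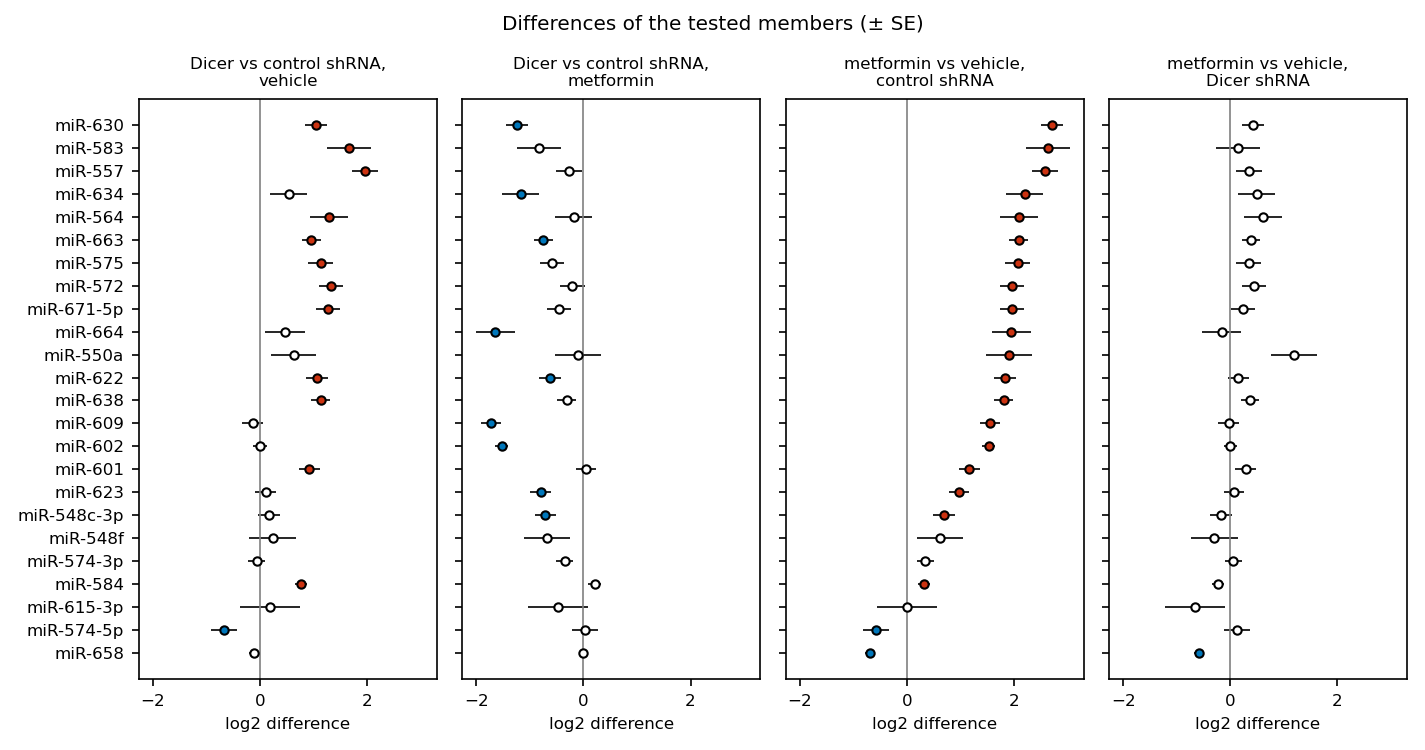
Log2 difference ± SE (horizontal) of the 24 tested members (vertical, ordered by the third panel) in the 4 comparisons; red marks a called higher, blue a called lower and open circles no call at an adjusted p of 0.05. Red points fill the third panel (19 of 24), number 12 in the first and are absent from the second and the last; with the viral scaling the first panel would hold 2 red and 4 blue points and the third 13 and 6.

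The difference between the differences was tested as an interaction term. The knockdown difference was lower with metformin than with vehicle for 18 of 24 members and higher for none, where 39.4% of all tested were lower and 37% higher. Its median over members was -1.50, against -0.53 over all tested. Without the 3 that control metformin alone admitted, 15 of 21 were lower, while the shares of all tested were not cut in that way. The same 18 values state equally that metformin raised these members less in the Dicer line than in the control line. Over the 15 members detected on all arrays 11 were lower, beside 50% of the 98. With the viral scaling 5 were lower and 5 higher, where 10.1% of all tested were lower and 54.8% higher. The 6 without a call were miR-548f, miR-550a, miR-574-3p, miR-574-5p, miR-615-3p and miR-658.

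Of the 15 members detected on all arrays, 9 (60%) shared 1 order of groups, which 42 of the 83 other microRNAs detected on all arrays (50.6%) and 7 of the 10 viral entries also had. The group means rose from control vehicle through Dicer vehicle and Dicer metformin to control metformin in miR-550a, miR-564, miR-572, miR-575, miR-622, miR-630, miR-638, miR-663 and miR-671-5p. In miR-601 the Dicer metformin mean was the highest, and in miR-584 the Dicer vehicle mean. Neighbours in that order did not always differ beyond their spread: the metformin effect within Dicer cells was called for none of these 9, and the line difference under metformin for 3. By calls, 9 members were higher with Dicer shRNA alone and with metformin alone, with no call between the lines under metformin. Among these, miR-575, miR-583, miR-638 and miR-671-5p had no overlap there (-0.59, -0.83, -0.31 and -0.45), while miR-584 and miR-601 were above 0. Such gaps were as common elsewhere: 54.2% of the 24 members and 53.8% of all tested had no overlap in that comparison. A further 3 (miR-622, miR-630 and miR-663) were also lower in the Dicer line under metformin. Another 6 (miR-548c-3p, miR-602, miR-609, miR-623, miR-634 and miR-664) rose with metformin in control shRNA cells. They were lower in the Dicer line under metformin, with no call for Dicer shRNA under vehicle. Both calls share the control metformin group, and miR-602, miR-609 and miR-664 were tested only through their detection in that group. Of all tested, 21.6% were higher with Dicer shRNA alone and 47.6% with metformin alone. The share of all tested with each pattern was not counted, so whether the members show these patterns more often than other microRNAs is not known here.

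The viral entries moved with the members. The 10 viral microRNA names detected on all 12 arrays, in cells with no stated viral infection beyond the lentiviral vector, had a median difference of 0.87 with Dicer shRNA under vehicle, and all 10 were above 0. It was 1.38 for metformin in control shRNA cells, with 10 of 10 above 0, -0.49 for Dicer shRNA under metformin, with 9 of 10 below 0, and 0.34 for metformin in Dicer shRNA cells, with 8 of 10 above 0. The 5 hur control features, which the array files list beside the human names, moved the other way, with medians of -1.05, -3.07, 1.74 and -0.76 in the same order of comparisons. The part of such unspecific signal in the members' differences was not tested. Line and array position within each slide cannot be told apart either, since the control line took the first positions.

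The choice of scaling also moved the median of all tested microRNAs. The median over the 208 moved by -0.32 for metformin in control shRNA cells when arrays were not scaled, by -0.24 and -0.37 for Dicer shRNA with vehicle and with metformin when they were scaled on the median, and by 0.23 for Dicer shRNA with metformin under quantile normalization. Under the viral scaling the member median for Dicer shRNA with vehicle was -0.14, beside -0.98 over all tested, and for metformin in control shRNA cells 0.42, beside -0.91.

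**Figure D5:**
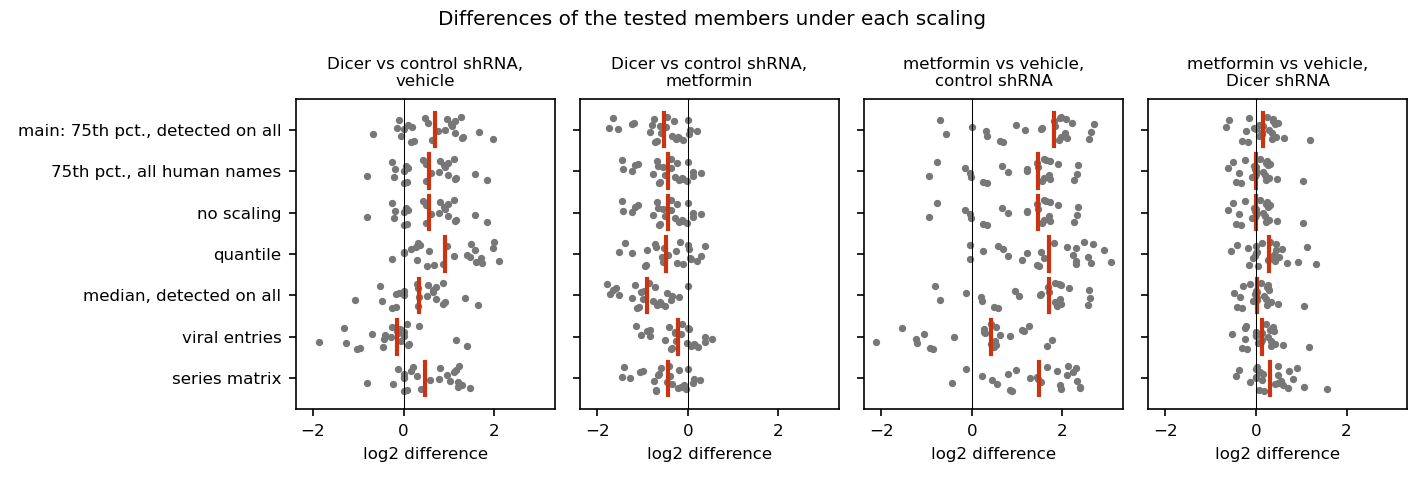
Log2 difference of each tested member (grey points, spread vertically for clarity) and their median (red bar) in the 4 comparisons under the main scaling and 6 other choices of values, of which the 75th percentile over all names and no scaling give the same values. For metformin in control shRNA cells the medians lie between 0.42 (viral scaling) and 1.83; for Dicer shRNA under vehicle they run from -0.14 with the viral scaling to 0.92 with quantile normalization.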

How the data were processed

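Cy3-labelled total RNA was read on Agilent microRNA arrays of 1 colour, per the labels, whose kit text describes a messenger RNA protocol. For each name the deposited array files give a linear intensity, the total gene signal, and a detection flag, per the file headers; undetected names hold 0.1. Agilent Feature Extraction 9.1 is named in the submitters' processing notes; how background was set is not stated there. The deposited series matrix lists 221 names, 25 of them members, as log2 values; its normalization and centring are unknown, and it served as an alternative.

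Signals were divided by each array's 75th percentile, taken over 98 human names that every array detected, with factors of 0.869 to 1.20. The floor was the median of the arrays' own 5th percentiles of detected signal (3.01), and log2 values were taken after it. limma 3.58.1 (R 4.3.3) fitted 4 group means with 8 residual and 1.85 prior degrees of freedom, checked on simulated data. The level of 1 name was not set against that of another. "At least" folds set the mean of the bright group against the floor where no array of the other group exceeded it. The number of arrays, 3 a group, limits the precision. No 2 arrays held identical values.

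The members, gene lists and tests were chosen with earlier results of these data known. Full values are given for miR-557, miR-572, miR-583 and miR-630 and for the 8 members with the largest absolute log2 differences among calls whose groups do not overlap, which include those 4. The other tested members are named with a level or a difference. Alternatives were 5 other scalings or value sources (a planned sixth, the percentile over all names, equalled no scaling), an offset in place of the floor, 2 other filters, array weights, fits on the compared groups alone, each array left out and the replicate number as a block. Mature sequences and gene bounds are RefSeq's; sequences of the array's own probes were not used here.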

Additional observations from a re-analysis of the deposited data

Results flagged for a closer look

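For 18 members the knockdown difference (Dicer shRNA minus control shRNA, log2) under metformin was below that under vehicle by limma's interaction term, with an adjusted p under 0.05. The differences between the differences were -2.49 for miR-583, -2.29 for miR-630, -2.23 for miR-557, -2.11 for miR-664, -1.73 for miR-671-5p, -1.72 for miR-575, -1.71 for miR-634, -1.70 for miR-663 and -1.69 for miR-622. They were -1.59 for miR-609, -1.53 for miR-602, -1.52 for miR-572, -1.48 for miR-564, -1.44 for miR-638, -0.90 for miR-623, -0.88 for miR-548c-3p, -0.87 for miR-601 and -0.55 for miR-584. The smallest adjusted p was 3.27e-05 (limma) for miR-602, which lay at the floor in every group but control metformin. Among members tested on wider detection the smallest was 6.67e-05 (limma, miR-630). The largest was 0.0209 (limma, miR-564). miR-602, miR-609 and miR-664 were tested only through their detection in control metformin. In 39.4% of all tested microRNAs the term was also lower. Under the viral scaling it was lower for 5 members and higher for 5, beside 10.1% and 54.8% of all tested.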

How the results depend on the processing

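Called members, higher and lower together, numbered 13 for Dicer shRNA with vehicle and 9 for Dicer shRNA with metformin. They numbered 21 for metformin in control shRNA cells, 1 in Dicer shRNA cells and 18 for the interaction. The directions and the shares of all tested are given with each comparison above. Leaving out each array in turn gave 12 to 14, 6 to 11, 19 to 22, 1 to 6 and 17 to 19. In the fourth comparison the count was 6 without control vehicle replicate 3 (5 higher, 1 lower, beside 11.5% and 17.8% of all tested). It was 2 (1 higher, 1 lower) without control vehicle replicate 2 (beside 5.29% and 15.9%) or Dicer vehicle replicate 1 (beside 12.5% and 21.6%). A replicate block gave 13, 10, 21, 1 and 19; same-numbered arrays deviated together only weakly (correlations of -0.18 to 0.32), so they share a number and no more. Viral scaling gave 6 in the first (2 higher, 4 lower, beside 1.92% and 61.5% of all tested) and 5 in the second (all lower, beside 11.5%). It gave 2 in the fourth, all higher, beside 7.21% of all tested. For the interaction it gave 10 (5 higher, 5 lower, beside 54.8% and 10.1%). Median scaling gave 18 in the second (all lower, beside 51% of all tested), where the median of all tested moved by -0.37. It gave 0 in the fourth. Testing only microRNAs detected on all 12 arrays, with 15 members left, gave 5 in the second (all lower, beside 26.5% of those tested). It gave 13 in the third (12 higher, 1 lower, beside 62.2% and 25.5%). For the interaction it gave 11 (all lower, beside 52%). Array weights gave 15 in the second (1 higher, 14 lower, beside 17.3% and 43.3% of all tested). They gave 4 in the fourth (3 higher, 1 lower, beside 15.4% and 24%). In the fourth, no scaling gave 2 (all lower, beside 21.2%) and the offset gave 2 (1 higher, 1 lower, beside 6.25% and 19.2%). Quantile normalization and the series matrix gave 5 each there, with the directions and shares given above. The 75th percentile over all names is the undetected value of 0.1 on every array, so it equals no scaling (2). Without it, 82 of 2172 member values under an alternative changed sign, 66 of them called in neither fit; 61 lost and 67 gained a call with the same sign; the causes were not tested. Of values called in at least 1 fit, viral scaling turned the sign of miR-548c-3p (-1.03), miR-575 (-0.064), miR-584 (-0.44), miR-601 (-0.28), miR-622 (-0.13), miR-630 (-0.15), miR-638 (-0.068) and miR-663 (-0.24) for Dicer shRNA with vehicle, and miR-548c-3p (-0.85), miR-574-3p (-1.20), miR-584 (-1.23) and miR-601 (-0.38) for metformin in control shRNA cells. There miR-584 was -0.049 without scaling. Quantile normalization put miR-658 at 0.37 (first) and miR-623 at 0.030 (second), and median scaling put miR-601 at -0.36 (second). Signals near the floor limit miR-557, miR-583, miR-602, miR-609, miR-615-3p, miR-623, miR-634, miR-658 and miR-664, whose differences are set by it in part.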
